A study of Mus musculus with 34 samples.

Results

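The unfolded protein response and the folding machinery of the endoplasmic reticulum (ER) were followed through 35 named genes, chosen by name, of 48709 genes in a bulk RNA-seq table of mouse pancreatic islets. All 35 genes passed the filter on low counts. By role they were 11 ER chaperones and cochaperones, 5 disulfide isomerases and oxidases, 7 genes of ER-associated degradation, 1 translocon subunit, 5 sensors and transcription factors and 6 stress outputs. All mice, untreated ones included, are labelled RIP-DTR HTZ: they carry the receptor of diphtheria toxin (DT) under the rat insulin promoter, and DT acts on cells that use that promoter. Libraries came from mice given DT and taken 30 days post ablation (DT 30 DPA, n = 4) or 5 days post ablation (DT 5 DPA, n = 4), and from untreated mice with neither time nor diet in the label (CTRL, n = 3). At 10 weeks the groups were mice given 75 mg/kg of streptozotocin (STZ, which enters beta cells by the glucose transporter GLUT2 and damages their DNA) on HFD (STZ HFD, n = 4), DT on HFD (DT HFD, n = 3), no toxin on HFD (CTRL HFD, n = 4), STZ on SD (STZ SD, n = 4), DT on SD (DT SD, n = 4) and no toxin on SD (CTRL SD, n = 3). The study's title names the question, the response of islets to partial loss of beta cells. Of 34 libraries, 1 has conflicting labels and entered no comparison.

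Secreted proteins, proinsulin above all in beta cells, are folded in the ER by chaperones and closed with disulfide bonds by isomerases. When unfolded protein builds up, 3 membrane sensors respond: IRE1 (Ern1), which splices Xbp1 mRNA, PERK (Eif2ak3), which slows translation and favours that of Atf4, and ATF6, which is cut to release a transcription factor. XBP1 and ATF6 raise chaperones and degradation factors, while ATF4 raises amino acid and redox genes and, through CHOP (Ddit3), genes tied to cell death. Gene counts show neither Xbp1 splicing nor phosphorylation of the sensors. In bulk RNA, fewer cells of a type and less RNA per cell cannot be told apart.

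The promoters shown here are those of genes that were called in a comparison and hold 1 of 2 motifs known from the response. RefSeq promoter windows of GRCm38.p6, 250 bases before to 50 bases after the gene start, matched 31 of the 35 genes (Ero1lb under its newer symbol). They were searched on both strands for the ER stress response element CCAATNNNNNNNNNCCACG, known as the site of NF-Y with ATF6 or XBP1, and for TGATGNAA, the core of the C/EBP-ATF composite element through which ATF4 acts. The first motif was found in 10 of 31 promoters (32.3%) and in 37 of the 27025 promoters of all genes (0.137%), and TGATGNAA in 4 of 31 (12.9%) and in 1219 of 27025 (4.51%). The genes were chosen for their part in the response from which the motifs are known, so these shares are a description and no test. No promoter of the 31 held both. The sequences run 5′ to 3′ along the gene, capitals mark the motif, on either strand.
Hspa5, chr2:34772015-34772053, plus strand: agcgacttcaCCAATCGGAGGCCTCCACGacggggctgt
Calr, chr8:84847065-84847103, minus strand: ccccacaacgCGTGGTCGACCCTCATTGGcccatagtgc
Dnajc3, chr14:118937817-118937855, plus strand: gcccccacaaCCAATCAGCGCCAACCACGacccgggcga
Pdia6, chr12:17266481-17266519, plus strand: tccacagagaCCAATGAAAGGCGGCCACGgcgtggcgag
Ero1lb, chr13:12565672-12565710, plus strand: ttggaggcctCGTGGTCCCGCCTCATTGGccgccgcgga
Syvn1, chr19:6046522-6046560, plus strand: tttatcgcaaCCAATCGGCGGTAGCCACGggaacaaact
Chac1, chr2:119351039-119351066, plus strand: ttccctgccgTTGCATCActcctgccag
Asns, chr6:7693215-7693242, minus strand: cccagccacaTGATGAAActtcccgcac
Hspa5, which was not called, is shown as the best known carrier of the element. The first motif was also found in the promoters of Hsp90b1, Canx, Creld2 and Derl3, and TGATGNAA in those of Herpud1 and Trib3. Neither string was found in the windows of Sdf2l1, Pdia3, Dnajb9, P4hb, Ern1, Derl2, Ppp1r15a or Atf4, which were also called in at least 1 comparison. Hyou1 and Manf, called as well, had no matched window and were not searched, nor were Derl1 and Atf6. A match is a run of letters, not a measured site.

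The most abundant of the 35 transcripts in CTRL islets were some of the chaperones and isomerases and an oxidase, and the least abundant the stress outputs Chac1 and Trib3. On the authors' TPM scale, which allows for gene length, Calr (calreticulin, a lectin chaperone of glycoproteins) led in CTRL islets with 551 ± 78.5 TPM (SD, n = 3). Hsp90b1 (the ER HSP90, GRP94) followed with 448 ± 82.9 TPM, Pdia3 (the isomerase ERp57, partner of calreticulin) with 428 ± 24.7 TPM, P4hb (protein disulfide isomerase) with 375 ± 78.8 TPM, Ero1lb (the oxidase ERO1-beta, enriched in pancreas) with 345 ± 161 TPM and Hspa5 (the HSP70 BiP, which also holds the sensors inactive) with 327 ± 24.6 TPM. The ranges of 1 SD around the means of neighbours in this order overlapped. Among the sensors and factors Atf4 stood at 183 ± 16.1 TPM and Xbp1 at 124 ± 16.6 TPM, against 27.8 ± 2.34 TPM for Eif2ak3, 23.9 ± 3.43 TPM for Atf6 and 18.8 ± 8.78 TPM for Ern1. Chac1, which degrades glutathione, at 5.25 ± 2.15 TPM and Trib3, a pseudokinase that restrains ATF4, at 4.04 ± 1.42 TPM were the lowest.

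Over the 33 libraries Trib3, Derl3, Asns and Chac1 varied most, and Derl1 and Atf4 least. Values from here on are CPM, counts scaled to a common, TMM-adjusted library size. The highest library exceeded the lowest 9.48-fold for Trib3, 9.44-fold for Derl3, 9.14-fold for Asns and 8.71-fold for Chac1, but 1.62-fold for Derl1 and 1.65-fold for Atf4. Extremes gathered in few libraries: CTRL replicate 2 was the lowest of all 33 for 11 genes, DT SD replicate 1 the highest for 7 and STZ HFD replicate 4 the highest for 6. The share of all genes with an extreme in these libraries was not counted. Enterocyte markers summed to 6227 CPM in CTRL replicate 2, and acinar markers took 42.5% of counts in STZ HFD replicate 4.

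**Figure D1:**
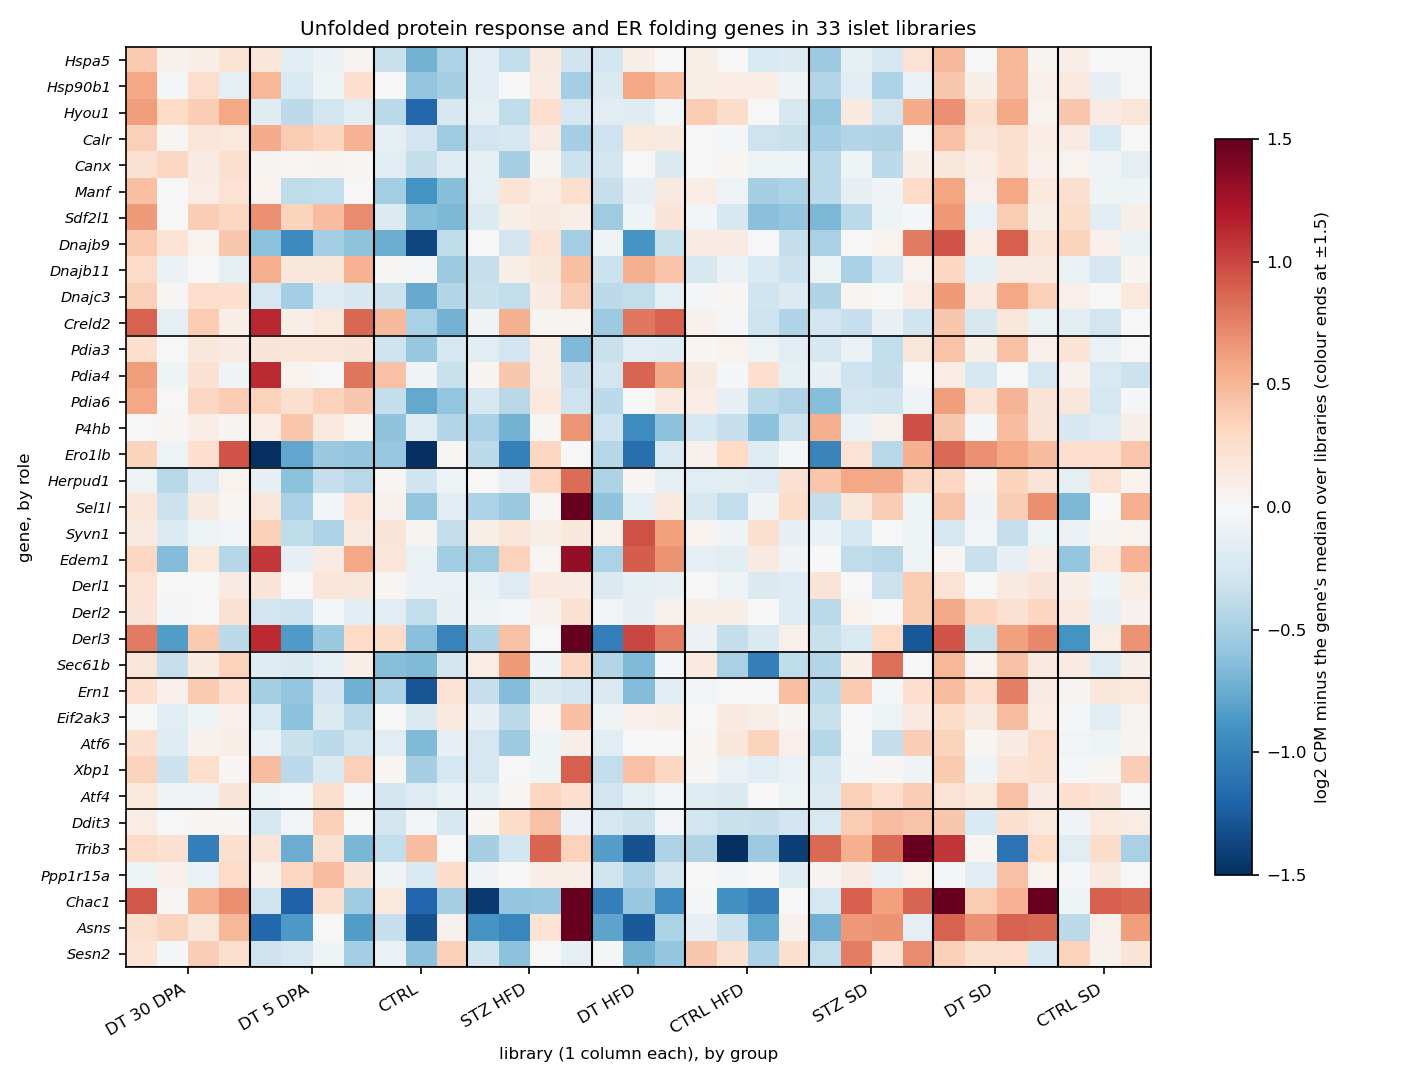
Levels of the 35 genes (rows, by role) in 33 islet libraries (1 column each, by group), as log2 CPM minus the gene's median over libraries; colour ends at 1.5 on either side. CTRL replicate 2 is the lowest of the 33 libraries for 11 genes, and STZ HFD replicate 4 stands out in red for Sel1l, Edem1, Derl3, Xbp1, Chac1 and Asns.

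Libraries held 11083117 to 18918348 counts. No label says that replicates came from separate animals, so p-values measure the spread between these samples. The preparations differed in other tissue: acinar markers took up to 42.5% of counts (STZ HFD replicate 4), and enterocyte markers summed to more than 500 CPM in 8 libraries, 3 of them at 5 DPA and 1 in CTRL. Markers of beta cells, 10 of 10 detected in every group, summed to between 30089 and 308641 CPM over the 33 libraries. By GENCODE M21, 9 of the 35 genes overlap another gene on their own strand and 12 one on the other strand, and no source used here gives the strand setting of the counting, so reads of Manf (which overlaps Rbm15b and Dcaf1), Ddit3 (which overlaps Mars), Pdia6 (Atp6v1c2) and Syvn1 (Mrpl49) may include some of a neighbour's.

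At 5 DPA, chaperones and isomerases held all the genes called higher than CTRL, and no sensor or stress output passed the test. The edgeR quasi-likelihood test called 4 of the 35 genes higher and 0 lower in DT 5 DPA, against 3.80% of all 17616 genes called higher and 1.59% lower. The median log2 fold change of the 35 was 0.25, against -0.05 over all genes tested, and 27 of 35 were above 0, against 44.9% of all genes. The log2 fold change was above 0 for all 11 chaperones, with a median of 0.50, and 2 of them passed the test.

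Sdf2l1, a stress-induced member of the BiP chaperone complex (chr16:17130138-17132383, minus strand, GRCm38), had 94.1, 74.1, 81.2 and 95.8 CPM in the 4 DT 5 DPA libraries, against 51.1, 37.6 and 36.8 CPM in CTRL. Every DT 5 DPA library lay above every CTRL library, and the log2 fold change was 1.04 (standard error, SE, 0.20; edgeR adjusted p = 0.00172). Pdia6, an isomerase that also acts on the sensor IRE1 (chr12:17266545-17284770, plus strand), had 399, 373, 399 and 418 CPM in DT 5 DPA and 246, 185 and 210.1 CPM in CTRL. Its groups did not overlap either, and the log2 fold change was 0.90 (SE 0.18, edgeR adjusted p = 0.00225). Calr (chr8:84841850-84846934, minus strand) had 1225, 1093, 1047 and 1204 CPM in DT 5 DPA against 762, 684 and 579.8 CPM in CTRL, again with no overlap, for a log2 fold change of 0.76 (SE 0.16, edgeR adjusted p = 0.00462). Pdia3, the fourth gene called, averaged 847 ± 2.65 CPM in DT 5 DPA and 575 ± 63.0 CPM in CTRL (SD, n = 4 and 3), a log2 fold change of 0.56 (SE 0.15, edgeR adjusted p = 0.0271). Calreticulin and ERp57, the products of Calr and Pdia3, work as partners on glycoproteins.

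Hspa5 was above all CTRL libraries at 5 DPA without passing the test. It had 945, 743, 787 and 864 CPM in DT 5 DPA and 663, 512 and 600.1 CPM in CTRL, a log2 fold change of 0.50 (SE 0.17, edgeR adjusted p = 0.0943). The untreated CTRL SD group averaged 855 CPM of Hspa5 and 767 CPM of Pdia3, against 835 and 847 CPM in DT 5 DPA. Sdf2l1, Pdia6 and Calr averaged 62.1, 311 and 821 CPM in CTRL SD, against 86.3, 397 and 1142 CPM in DT 5 DPA. No test was made between these groups. In all, 11 of the 35 genes had DT 5 DPA libraries wholly above CTRL and 0 wholly below, against 9.64% of all genes above and 5.75% below. Besides the 4 called genes and Hspa5 these were Canx, Manf, Dnajb11, P4hb, Sec61b and Atf4. Creld2, a secreted chaperone-like protein, had a log2 fold change of 0.77 but its groups overlapped.

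The sensors and their factors showed no called difference at 5 DPA. Xbp1 had 277, 154, 173 and 257 CPM in DT 5 DPA and 206, 143 and 169 CPM in CTRL (log2 fold change 0.32, SE 0.24), and replicates 1 and 4 of DT 5 DPA were the high ones. Atf4 had 146, 149, 180.4 and 149.9 CPM in DT 5 DPA and 126, 133 and 143 CPM in CTRL (0.22 on the log2 scale, SE 0.13), with the highest value in DT 5 DPA replicate 3. Eif2ak3 had the lowest log2 fold change of the 35, -0.34 (SE 0.14, edgeR adjusted p = 0.184). Of the 6 stress outputs 0 were called by edgeR, and their median was -0.08. Ddit3 (CHOP, a transcription factor tied to cell death) had 13.1, 15.2, 20.1 and 15.7 CPM in DT 5 DPA and 12.9, 15.2 and 13.3 CPM in CTRL, with overlapping groups. Of 7 degradation genes 0 were called, and their log2 fold changes lay between -0.25 (Herpud1) and 0.60 (Edem1).

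Among the 105 other genes of the pathway that were tested, 9 were higher at 5 DPA by the edgeR test and 0 lower. Of all genes 3.80% were called higher and 1.59% lower. Of the 9, 5 were among 30 ATF4 and CHOP target or partner genes. The smallest adjusted p belonged to Cebpb, a C/EBP factor also induced in inflammation, at 3.15 on the log2 scale (SE 0.23, adjusted p = 1.90e-09). Atf3, an immediate stress-response factor, followed with 2.62 (SE 0.41, adjusted p = 1.67e-04), and Eif2ak2 (PKR, a kinase for double-stranded RNA) with 0.77 (SE 0.15, adjusted p = 0.00146).

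Other cell types moved with the same contrast. All 8 of 8 macrophage markers were called higher at 5 DPA, and their sum was 4874 to 7204 CPM in DT 5 DPA against 674 to 1727 CPM in CTRL. The 6 fibroblast markers, 4 of them called, summed to 3035 to 4218 CPM against 689 to 1219 CPM. Beta-cell sums overlapped, at 32629 to 122669 CPM and 44889 to 147798 CPM, as did those of 10 B and plasma cell markers, at 3366 to 26993 CPM and 3131 to 19523 CPM. Acinar sums overlapped as well, at 11545 to 86791 CPM and 2792 to 18830.5 CPM, with 17 of 17 markers above 0 and 0 called. The part of these cells in the rise of these genes was not tested. With a B and plasma cell score as a covariate 6 genes were called, and with a beta-cell score 5. With the libraries that held enterocyte RNA left out, 1 DT 5 DPA library remained, its spread taken from the other groups, and 0 were called.

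**Figure D2:**
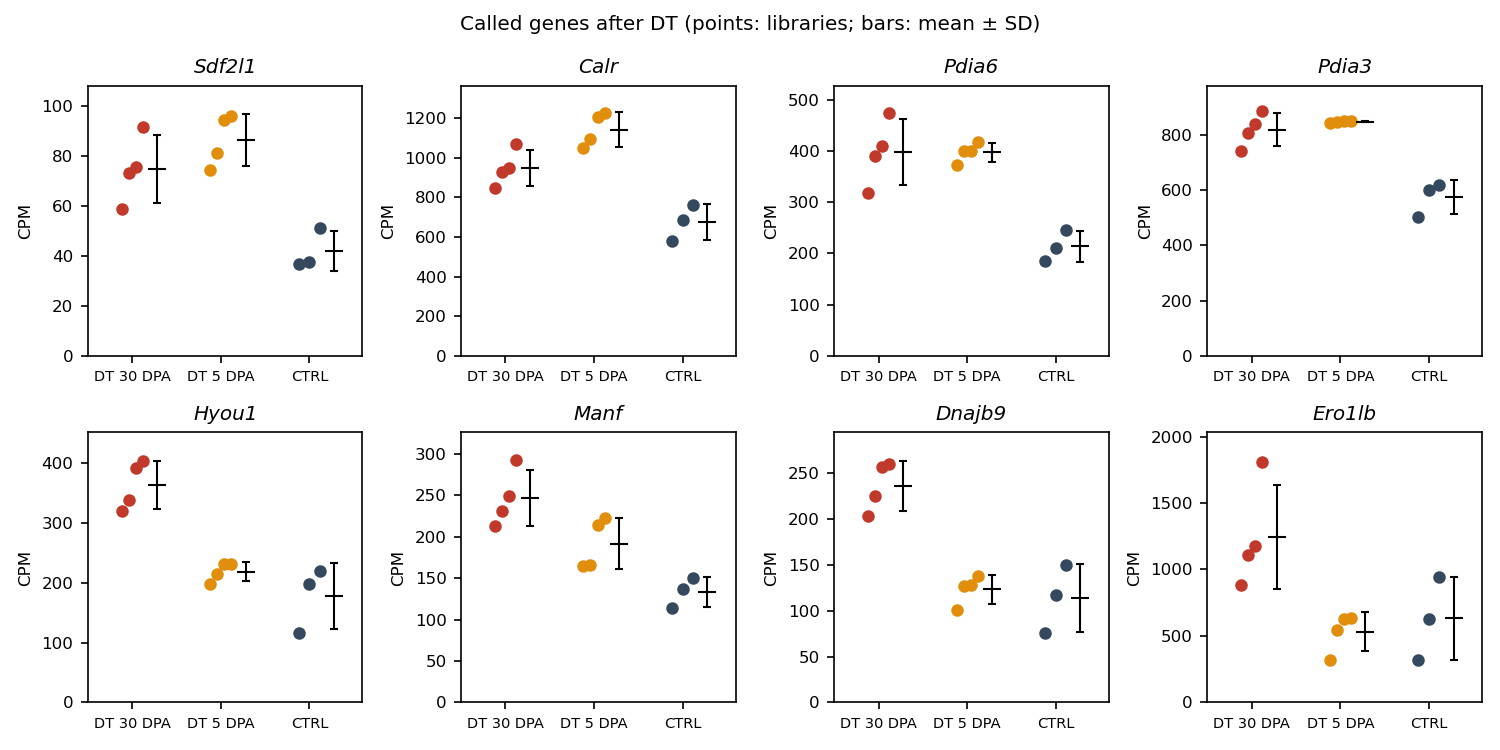
CPM of 8 genes called after DT in each library (points, sorted within a group) with the group mean and SD, for DT 30 DPA, DT 5 DPA and CTRL. Sdf2l1, Calr, Pdia6 and Pdia3 lie above CTRL in both DT groups, whereas Hyou1 and Dnajb9 lie above CTRL in DT 30 DPA and overlap with it in DT 5 DPA, and Ero1lb overlaps with CTRL in both.

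At 30 DPA the folding genes again stood above CTRL, but the calls were at the edge of the threshold. By edgeR 3 genes were higher and 0 lower in DT 30 DPA, against 0.176% of all genes higher and 0.0568% lower. The adjusted p of all 3 was 0.04999. The median log2 fold change of the 35 was 0.46, against -0.02 over all genes, and 31 of 35 were above 0, against 48.5% of all genes. The same 3 CTRL libraries served both DT groups. Their means lay below those of CTRL SD for Hspa5 (592 and 855 CPM), Hyou1 (178 and 308 CPM), Manf (134 and 219 CPM) and Pdia6 (214 and 311 CPM). Pdia4 was among the genes that went the other way (148 and 129 CPM). The part of the CTRL level in these differences was not tested.

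Hyou1, a large HSP70 relative that exchanges nucleotide on BiP (chr9:44379490-44392369, plus strand), had 403, 320.0, 338 and 391.7 CPM in DT 30 DPA and 198, 116 and 220.3 CPM in CTRL, a log2 fold change of 1.03 (SE 0.23). Manf, an ER-resident and secreted protein known to favour beta-cell survival in mice (chr9:106838312-106891979, minus strand), had 293, 214, 231 and 249 CPM in DT 30 DPA and 150.2, 114 and 137 CPM in CTRL (0.88, SE 0.19). Pdia6 had 473, 317, 389.8 and 410.3 CPM in DT 30 DPA and 246, 185 and 210.1 CPM in CTRL (0.90, SE 0.18). For all 3 genes every DT 30 DPA library lay above every CTRL library.

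In total 15 of the 35 genes had DT 30 DPA wholly above CTRL and 0 wholly below, against 7.50% of all genes above and 4.92% below. Hspa5 was among them, with 1097, 873, 899 and 962 CPM in DT 30 DPA and 663, 512 and 600.1 CPM in CTRL (0.69, SE 0.17, edgeR adjusted p = 0.0516). Dnajb9, the BiP cochaperone ERdj4 and a known XBP1 target, had a larger log2 fold change of 1.05 with a wider error (SE 0.27, edgeR adjusted p = 0.0516). The others were Calr, Canx, Sdf2l1, Dnajc3, Pdia3, P4hb, Derl2, Atf4, Ddit3 and Asns. Xbp1 had 257, 161, 242 and 206 CPM in DT 30 DPA (0.33 relative to CTRL, SE 0.24), and its groups overlapped. Atf4 had 170.2, 148, 146 and 174 CPM (0.25, SE 0.13) and Ddit3 17.0, 15.7, 15.8 and 15.9 CPM (0.22, SE 0.16), both without a call.

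The count of 3 depended on single libraries, and the share of all genes called in each refit is not given. It was 0 without CTRL replicate 1, CTRL replicate 2, DT 30 DPA replicate 2 or DT 30 DPA replicate 4, 5 without DT 30 DPA replicate 1, 6 without DT 30 DPA replicate 3 and 11 without CTRL replicate 3, and DESeq2 called 11. With a beta-cell or a B and plasma cell score as a covariate edgeR called 0. Alpha-cell sums did not overlap, at 30361 to 41304 CPM in DT 30 DPA and 7475 to 26718 CPM in CTRL, with 0 of 6 markers called. Beta-cell sums did, at 127001 to 308641 CPM in DT 30 DPA and 44889 to 147798 CPM in CTRL, as did acinar sums, at 13545 to 101334 CPM and 2792 to 18830.5 CPM. The part of these cells was not tested further. Of the 105 other pathway genes 2 were called higher and 0 lower, against 0.176% and 0.0568% of all genes. Both were subunits of signal peptidase: Spcs2 at 0.65 (SE 0.13) and Spcs1 at 0.74 (SE 0.16) on the log2 scale.

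The later DT group had more of the sensor Ern1, the oxidase Ero1lb and the chaperones and cochaperones Dnajb9, Hyou1 and Dnajc3 than the earlier one. By edgeR 5 of the 35 genes were higher in DT 30 DPA than in DT 5 DPA and 0 lower, where 16.5% of all genes were called higher and 13.9% lower, so the share of higher calls, 5 of 35, was near that of all genes. The median log2 fold change was 0.05 for the 35 and 0.02 over all genes.

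Dnajb9 (chr12:44205559-44210326, minus strand) had 256, 225, 203 and 259.7 CPM in DT 30 DPA and 127, 101, 137 and 128 CPM in DT 5 DPA, with no overlap and a log2 fold change of 0.94 (SE 0.24, edgeR adjusted p = 0.00548). Ero1lb (chr13:12565874-12611396, plus strand) had 1176, 885, 1112 and 1806 CPM in DT 30 DPA and 318, 545, 634 and 627 CPM in DT 5 DPA (1.23, SE 0.33, adjusted p = 0.00624). Ern1, the sensor IRE1-alpha (chr11:106394650-106487852, minus strand), had 104, 92.1, 114 and 104 CPM in DT 30 DPA and 61.7, 58.4, 71.5 and 52.8 CPM in DT 5 DPA (0.76, SE 0.21, adjusted p = 0.00861). For each of these genes the DT 30 DPA libraries were all above the DT 5 DPA libraries. Hyou1 and Dnajc3 (p58IPK, a BiP cochaperone that also inhibits PERK) were the others called, at 0.73 and 0.51 on the log2 scale.

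Calr and Sdf2l1, called at 5 DPA, did not differ detectably between the times, with log2 fold changes of -0.27 (SE 0.15) and -0.21 (SE 0.18). In all, 9 of 35 genes were wholly above in DT 30 DPA and 0 wholly below, against 16.8% and 16.5% of all genes. Beta-cell markers, 9 of 10 called higher, summed to 127001 to 308641 CPM in DT 30 DPA and 32629 to 122669 CPM in DT 5 DPA, with no overlap, and with the beta-cell score as a covariate 0 of the 35 were called. Alpha-cell sums were also higher without overlap, at 30361 to 41304 CPM in DT 30 DPA and 9571 to 15581 CPM in DT 5 DPA. Macrophage sums, at 498 to 1099 CPM in DT 30 DPA and 4874 to 7204 CPM in DT 5 DPA, and fibroblast sums, at 853 to 1111 CPM and 3035 to 4218 CPM, were lower without overlap; the part of these 3 cell types was not tested. Without the libraries that held enterocyte RNA, 1 DT 5 DPA library remained and 0 were called. Of the other pathway genes 19 of 105 were higher and 12 lower, shares near the 16.5% and 13.9% of all genes. The smallest adjusted p belonged to Cebpb (-3.09, SE 0.20), Atf3 (-2.45, SE 0.37) and Eif2ak2 (-0.88, SE 0.14), all lower in DT 30 DPA.

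**Figure D3:**
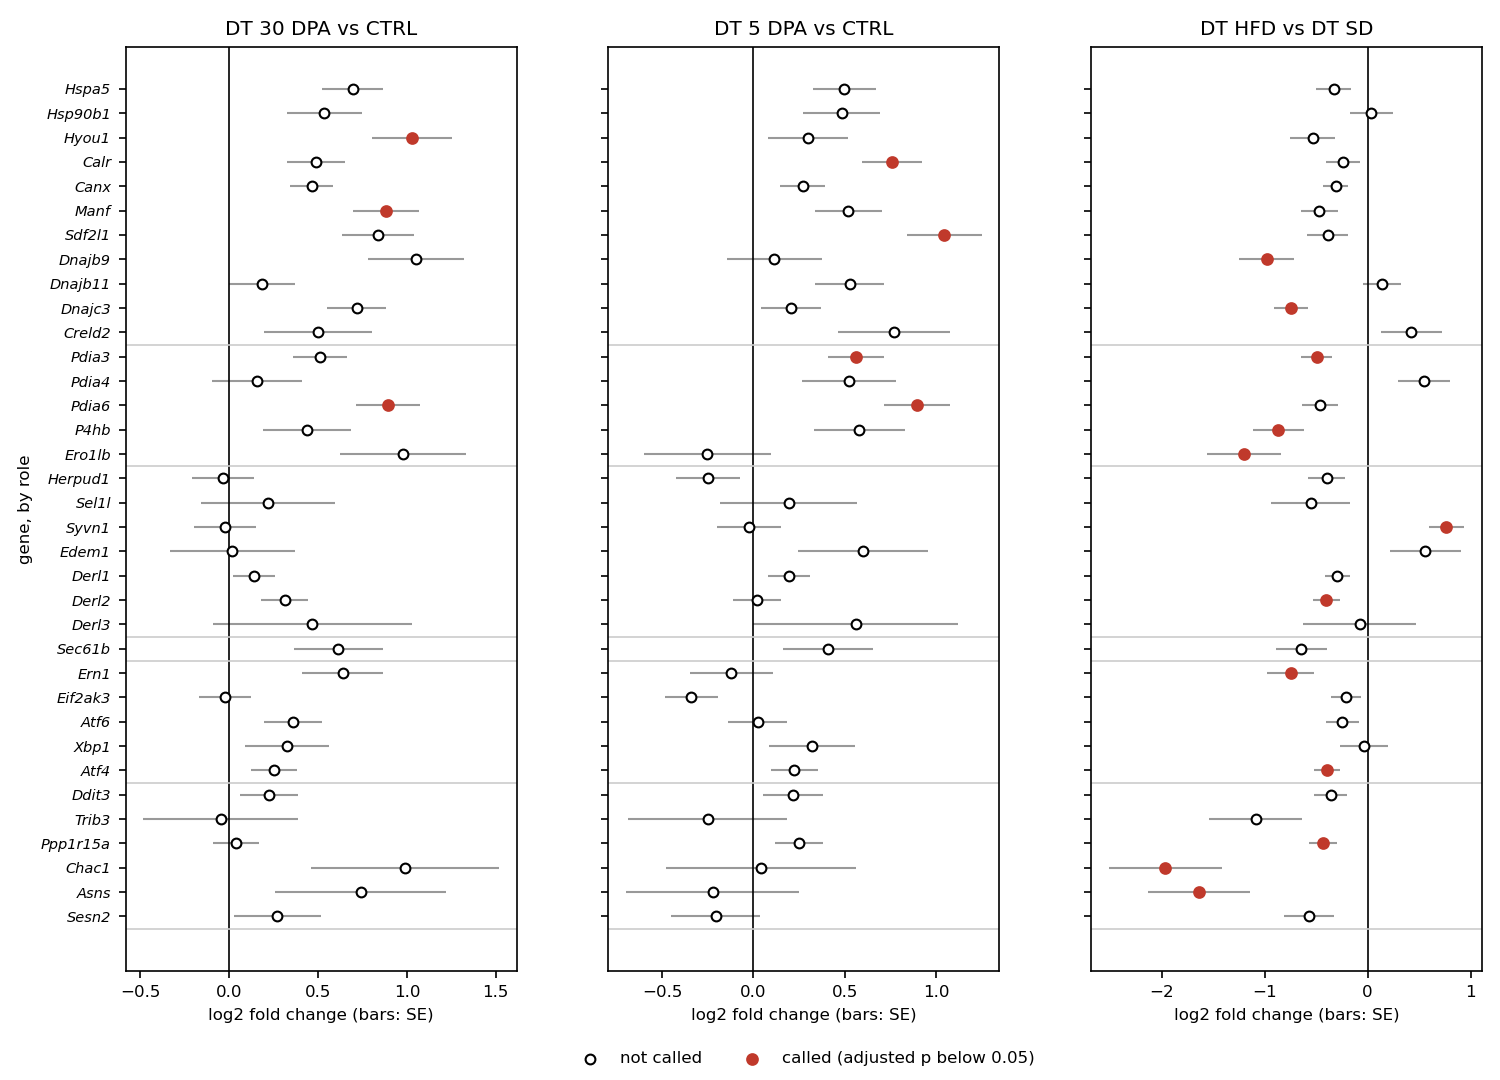
Log2 fold change of each of the 35 genes with its SE, for DT 30 DPA over CTRL, DT 5 DPA over CTRL and DT HFD over DT SD; filled points passed edgeR's test at an adjusted p below 0.05 over all genes. Chaperones lie right of 0 in both DT comparisons with CTRL, and stress outputs lie left of 0 in DT HFD over DT SD.

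At 10 weeks on SD, neither DT nor STZ islets had a called difference from CTRL SD in any of the 35 genes. For DT SD against CTRL SD edgeR called 0 (4 had an unadjusted p below 0.05, against 7.95% of all genes, and DESeq2 called 0), where edgeR called 0.0341% of all genes in either direction. Of the 35 genes 32 had log2 fold changes above 0, all 11 chaperones among them, against 51.9% of all genes, and the median over the 35 was 0.24, against 0.02 over all genes. DT SD lay wholly above CTRL SD for 6 genes, Canx, Pdia6, Ero1lb, Derl2, Eif2ak3 and Asns, and wholly below for 0, against 8.39% and 8.58% of all genes. Hspa5 had 1169, 839, 1184 and 858 CPM in DT SD and 895, 836 and 836 CPM in CTRL SD, and replicates 1 and 3 of DT SD were the high ones.

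For STZ SD against CTRL SD edgeR again called 0, against 0.00568% of all genes in either direction. DESeq2 called 0 too, and 3 of the 35 had an unadjusted edgeR p below 0.05, against 11.3% of all genes. The median was -0.04, and 11 of 35 genes were above 0, against 52.2% of all genes. Trib3 and Herpud1, a scaffold of the degradation complex, were wholly above CTRL SD and 0 genes wholly below, against 3.62% and 3.28% of all genes. Trib3 had 6.18, 4.96, 6.13 and 10.95 CPM in STZ SD and 3.05, 4.17 and 2.46 CPM in CTRL SD (1.13, SE 0.45, edgeR adjusted p = 0.262). Ddit3 had 13.4, 20.3, 21.6 and 21.0 CPM in STZ SD, 20.6, 13.4, 18.5 and 17.4 CPM in DT SD and 15.0, 17.5 and 16.8 CPM in CTRL SD, and these ranges overlapped.

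Between the toxins on SD, Pdia6 and Calr were lower in STZ SD than in DT SD by edgeR, and 0 genes were higher. Of all genes 0.403% were called lower and 2.16% higher. Pdia6 had 203, 261, 257 and 301 CPM in STZ SD and 487, 365, 451 and 359 CPM in DT SD (-0.70, SE 0.16, adjusted p = 0.0299). Calr had 589, 615, 612 and 836 CPM in STZ SD and 1132, 945, 987 and 904 CPM in DT SD (-0.58, SE 0.15, adjusted p = 0.0388). Every STZ SD library was below every DT SD library for both. All 11 chaperones and all 5 sensors and factors had log2 fold changes below 0, the 35 had a median of -0.33 against 0.04 over all genes, and 5 genes were wholly below and 0 wholly above, against 4.29% and 3.81% of all genes.

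The 2 calls between STZ SD and DT SD rested on single libraries: 0 remained without STZ SD replicate 1 or without DT SD replicate 1, 2 or 3, and 1 without DT SD replicate 4. DESeq2 called 6. Beta-cell sums were 63186 to 194569.9 CPM in STZ SD and 232557 to 254742 CPM in DT SD, without overlap, and with a beta-cell or a B and plasma cell score as a covariate edgeR called 0. Of the other pathway genes 1 of 105 was higher and 4 lower, against 2.16% and 0.403% of all genes. The 3 lower genes with the smallest adjusted p were Fkbp2 (an ER prolyl isomerase, -0.79), Spcs3 (-0.61) and Spcs2 (-0.46).

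On HFD the toxin groups did not differ from CTRL HFD by edgeR in any of the 35 genes. For DT HFD 5 genes had an unadjusted p below 0.05, against 11.9% of all genes, and DESeq2 called 0; edgeR called 0.00568% of all genes. DT HFD lay wholly below CTRL HFD for Pdia3, Ero1lb, Ern1, Atf6 and Ppp1r15a, a share of 5 of 35 against 6.40% of all genes, and wholly above for 0, against 5.14%. Ern1 had 75.2, 55.4 and 77.7 CPM in DT HFD and 85.0, 87.1, 87.7 and 119 CPM in CTRL HFD (-0.45, SE 0.23). For STZ HFD 7 genes had an unadjusted p below 0.05, against 13.7% of all genes, and DESeq2 called 1; edgeR called 0.471% of all genes.

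The gene nearest the threshold in STZ HFD was Ddit3. It had 15.8, 18.9, 21.2 and 14.7 CPM in STZ HFD and 12.8, 12.4, 12.3 and 12.8 CPM in CTRL HFD, and every STZ HFD library was above every CTRL HFD library (0.49, SE 0.15, edgeR adjusted p = 0.122). Ern1 was wholly below in STZ HFD, and these were the only genes of the 35 whose groups did not overlap there, against 4.22% of all genes above and 4.64% below. Between STZ HFD and DT HFD edgeR called 0 of the 35 and 0.341% of all genes, and 1 of the 35 without DT HFD replicate 1. DESeq2 called 0, and 10 had an unadjusted edgeR p below 0.05, against 15.6% of all genes. Ppp1r15a, a phosphatase subunit that reverses the PERK signal, was wholly above in STZ HFD (0 genes were wholly below, against 5.15% of all genes above and 5.99% below), at 28.5, 29.5, 31.8 and 31.5 CPM against 24.2, 21.6 and 24.5 CPM in DT HFD.

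Of the 14 comparisons, HFD against SD in mice given DT had the most called genes among the 35. In DT HFD, against DT SD, 11 of the 35 genes were lower and 1 was higher by edgeR, where 8.46% of all genes were lower and 15.0% higher. The lower genes came from every role except the translocon: cochaperones Dnajc3 and Dnajb9, isomerases and oxidases P4hb, Pdia3 and Ero1lb, the degradation gene Derl2, the sensor Ern1 and the factor Atf4, and the stress outputs Chac1, Asns and Ppp1r15a. The higher gene was Syvn1, the ubiquitin ligase HRD1 of ER-associated degradation. The median log2 fold change was -0.40, against -0.01 over all genes, and 6 of 35 were above 0, against 49.2% of all genes.

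Dnajc3 (chr14:118937976-118981697, plus strand) had 186, 190.2 and 222 CPM in DT HFD and 381, 271, 368 and 313 CPM in DT SD (-0.74, SE 0.17, edgeR adjusted p = 0.00538). Syvn1 (chr19:6046576-6053712, plus strand) had 92.5, 170.4 and 135 CPM in DT HFD and 73.9, 85.1, 69.1 and 83.5 CPM in DT SD (0.77, SE 0.17, adjusted p = 0.00551). Dnajb9 had 186, 106 and 155 CPM in DT HFD and 376, 211, 363 and 225 CPM in DT SD (-0.98, SE 0.27, adjusted p = 0.0123). None of the 3 genes had overlapping groups, and DT HFD replicate 2 held the lowest Dnajb9 value and the highest Syvn1 value of its group. Of all 35, 18 genes were wholly below and 1 wholly above in DT HFD, against 18.4% and 20.7% of all genes.

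Among the 11 lower genes the ATF4 targets Chac1 and Asns had the largest log2 fold changes. Chac1 averaged 2.76 ± 0.489 CPM in DT HFD and 10.8 ± 4.79 CPM in DT SD (SD, n = 3 and 4), a log2 fold change of -1.97 (SE 0.55, edgeR adjusted p = 0.0138). Asns, asparagine synthetase, averaged 30.0 ± 7.96 CPM in DT HFD and 93.5 ± 5.95 CPM in DT SD (-1.64, SE 0.50, adjusted p = 0.0206). Both have the TGATGNAA core in the promoter stretches shown above. So do the promoters of Herpud1 and Trib3, which were not called here, and 4.51% of the promoters of all genes. A part of the motif in these differences was not tested. Ero1lb fell by 1.20, P4hb by 0.87, Pdia3 by 0.50 and Ppp1r15a by 0.43 on the log2 scale. Ern1 and Derl2, beyond the number of genes named by rule, also fell.

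Atf4 itself had 125, 138 and 148 CPM in DT HFD and 177, 170.3, 206 and 166 CPM in DT SD, a log2 fold change of -0.40 (SE 0.13, edgeR adjusted p = 0.0302). Ddit3 had 13.0, 12.6 and 15.3 CPM in DT HFD and 20.6, 13.4, 18.5 and 17.4 CPM in DT SD (-0.36, SE 0.16, adjusted p = 0.105), and its groups overlapped. Hspa5 and Xbp1 were not called either. Hspa5 had 687, 889 and 840.1 CPM in DT HFD and 1169, 839, 1184 and 858 CPM in DT SD (-0.33, SE 0.17). Xbp1 had 156, 273 and 251 CPM in DT HFD and 265, 193, 233 and 239 CPM in DT SD (-0.04, SE 0.23). Pdia4, Creld2 and Edem1 had log2 fold changes above 0 without a call, at 0.55, 0.43 and 0.56.

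**Figure D4:**
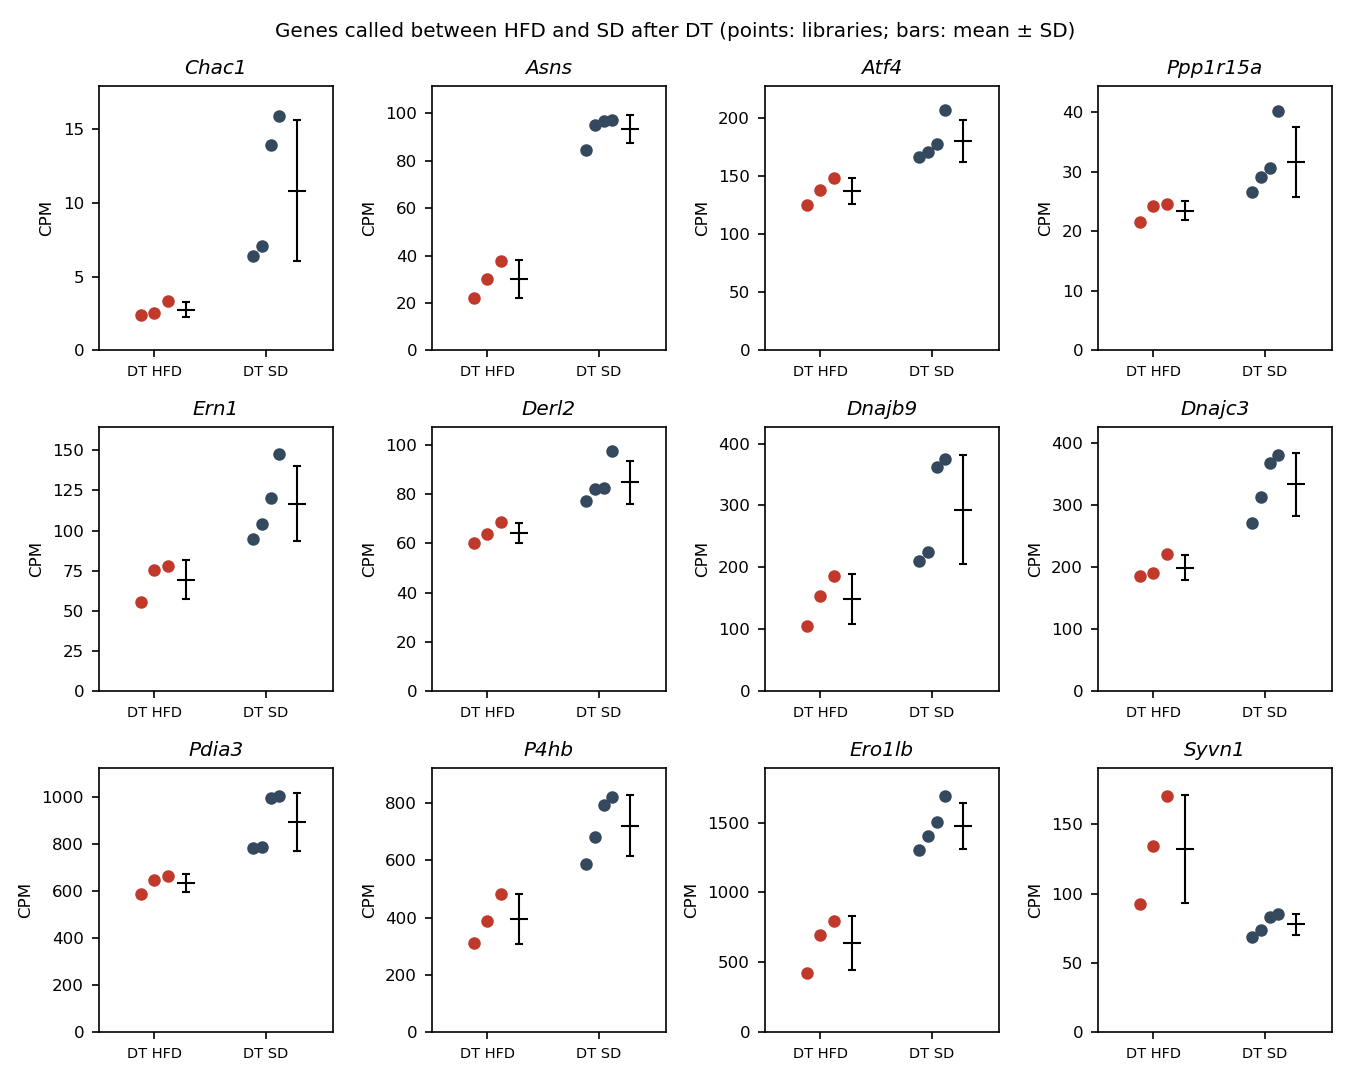
CPM of the 12 genes called between DT HFD and DT SD in each library (points, sorted within a group), with group mean and SD. DT HFD libraries lie below DT SD libraries for 11 genes and above them for Syvn1.

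Cell-type markers differed along the same contrast. Beta-cell markers, 7 of 10 called lower, summed to 30089 to 111264 CPM in DT HFD and 232557 to 254742 CPM in DT SD, and B and plasma cell markers, 6 of 10 called higher, to 4861 to 19506 CPM and 535 to 4850.2 CPM. Acinar markers, 1 of 17 called lower, summed to 10176 to 31312 CPM in DT HFD and 56023 to 236965 CPM in DT SD, and endothelial markers, 0 of 4 called, to 315 to 385 CPM and 419 to 527 CPM. None of these 4 sums overlapped between the groups. Enterocyte markers, 5 of 11 called higher, had overlapping sums, at 52.3 to 2483 CPM in DT HFD and 113 to 132 CPM in DT SD. The value of 2483 CPM belonged to DT HFD replicate 1. With the beta-cell or the B and plasma cell score as a covariate edgeR called 0 of the 35. The count was 0 without DT HFD replicate 2, whose beta-cell sum of 30089 CPM was the lowest of the 33 libraries, and 8 without DT SD replicate 1 or replicate 3. With libraries over 10% acinar counts or with enterocyte RNA left out, 0 were called, with 2 DT HFD libraries and 1 DT SD library remaining. With an acinar limit of 25%, chosen after seeing the data, 17 were called. At that limit DT HFD replicate 1 was still left out for its enterocyte RNA, and 2 DT HFD libraries remained. The share of all genes called there is not given, so the 17 cannot be set against it. The part of cell composition in these differences was not tested beyond these values.

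Of the 105 other pathway genes 35 were lower and 5 higher in DT HFD than in DT SD, against 8.46% and 15.0% of all genes. The smallest adjusted p-values belonged to Erlec1, an ER lectin of degradation (-0.83, SE 0.15), Fkbp2 (-0.99, SE 0.18) and Srpr, the signal recognition particle receptor (-0.92, SE 0.20). All 3 were lower.

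Untreated and STZ mice had no called diet difference among the 35 genes. For CTRL HFD against CTRL SD edgeR called 0 of the 35 and 0% of all genes. DESeq2 called 0, and 3 had an unadjusted edgeR p below 0.05, against 2.49% of all genes. Of the 35, 6 had a log2 fold change above 0, against 52.2% of all genes, and the median was -0.13. P4hb, Atf4 and Ddit3 were wholly below in CTRL HFD and 0 genes wholly above, against 4.23% and 3.46% of all genes. Atf4 had 135, 132, 153 and 145 CPM in CTRL HFD and 181, 175 and 153 CPM in CTRL SD (-0.27, SE 0.13). For STZ HFD against STZ SD edgeR called 0, against 0.136% of all genes, and DESeq2 called 0. Of the 35, 3 had an unadjusted edgeR p below 0.05, against 13.0% of all genes, and the median was 0.02. Creld2 and Syvn1 were wholly above in STZ HFD and 0 genes wholly below, against 1.22% and 1.22% of all genes.

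Whether the toxin's effect differed between diets was tested directly as an interaction. For DT, edgeR called 0 of the 35 and 0% of all genes (4 of the 35 with an unadjusted p below 0.05, against 15.6% of all genes, 0 by DESeq2), and the smallest adjusted p was 0.282, for Syvn1, with an interaction of 0.74 on the log2 scale (SE 0.24). For STZ it called 0 and 0% of all genes (1 with an unadjusted p below 0.05, against 6.60% of all genes, 0 by DESeq2), with the smallest adjusted p at 0.668, for Sdf2l1 (0.74, SE 0.27). The lower levels in DT HFD than in DT SD were therefore not shown to differ from the diet difference of untreated mice. Side by side, the log2 fold change between HFD and SD was -1.97 after DT and -1.03 without toxin for Chac1, -1.64 and -0.42 for Asns, and -0.74 and -0.20 for Dnajc3.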

How the data were processed

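Per the labels' protocols, islet RNA (RNeasy Mini kit) was sequenced from QIAseq stranded mRNA libraries. The assembly is mm10 per the submitters' processing notes; no source used here names the aligner, the counting tool or the annotation. Per the file headers the authors' table gives, for each gene and library, the total read count with no normalization, an RPKM and a TPM. The counts went into every test, TPM into levels between genes, and RPKM into nothing. A deposited column headed CPM sums to 0.784 to 2.106 times what CPM sums to, so it is a score with an unexplained scaling and was not used. No column belonged to other samples, and 0 rows lacked a name. Total counts were 11083117 to 18918348 per library.

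Genes were kept with filterByExpr (count minimum 10, total minimum 15), which left 17616. edgeR 4.0.16 (R 4.3.3) was run with TMM scaling and 1 robust quasi-likelihood fit over 33 libraries in 9 groups. Adjusted p is Benjamini-Hochberg over all genes tested, and a gene was called below 0.05. SE is on the log2 scale, and a positive log2 fold change means higher in the group named first. Alternatives were DESeq2 1.42.0 (Wald test, size factors), no filter, hormone genes out before scaling, marker scores as covariates, the replicate number as a block, each library left out, and libraries with neighbouring tissue left out (enterocyte markers over 500 CPM or acinar markers over 10% of counts). The last also with 25%, and the B and plasma cell score, were chosen after seeing the data. Counts under the alternatives are given without the share of all genes called there. The fit was also run on counts simulated from its own mean levels and spread, without neighbouring tissue that differs between libraries. That run cannot show how the test behaves with such tissue.

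The 35 genes, the other lists and the tests were chosen with earlier results of these data known. Values of every library are given for Hspa5, Xbp1, Atf4, Ddit3 and the 3 called genes with the smallest adjusted p per comparison, with up to 6 more named by fold change. Of 106 other pathway genes 105 were tested, and the 3 with the smallest adjusted p are named. Others named were chosen after their values were seen. Same-numbered libraries did not all deviate together, so numbers were not used as pairs. No pair of libraries in a group was a duplicate (smallest chi-square per degree of freedom 27.3).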

Additional observations from a re-analysis of the deposited data

Results flagged for a closer look

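In groups of 4 libraries, a value far from the other 3 was looked for in each of the 35 genes, and 15 of 210 tests found one; chance flags about 1 in 20. In STZ HFD replicate 4, whose acinar markers took 42.5% of counts, Sel1l (the adaptor of HRD1) stood at 578 CPM against 119 to 176 CPM in the other 3, Xbp1 at 374 CPM against 169 to 202 CPM, and Chac1 at 15.3 CPM against 1.82 to 3.34 CPM. In CTRL HFD replicate 5, Herpud1 was high at 168 CPM against 126 to 128 CPM, Ern1 high at 119 CPM against 85.0 to 87.7 CPM and Hsp90b1 low at 943 CPM against 1040.2 to 1059.6 CPM. The other libraries with a value apart had 1 each. High values were Atf4 in DT 5 DPA replicate 3 (180.4 CPM), Ddit3 in DT 30 DPA replicate 1 (17.0 CPM), Calr in STZ SD replicate 4 (836 CPM) and Creld2 in STZ HFD replicate 2 (77.1 CPM). Low values were Derl1 in DT 5 DPA replicate 2 (84.6 CPM), Trib3 in DT 30 DPA replicate 3 (1.69 CPM), Asns in DT SD replicate 2 (84.7 CPM), Ddit3 in STZ SD replicate 1 (13.4 CPM) and Sdf2l1 in STZ HFD replicate 1 (50.8 CPM).

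The library with conflicting labels was titled as an untreated HFD replicate but labelled DT. With all libraries scaled together, it stood above all 10 untreated libraries for 16 of the 35 genes. No test was made, and the share of all genes above those libraries was not counted. Whether other genes stood above them as often is not known. Among chaperones it had 1084 CPM of Hspa5, 1659 of Hsp90b1, 1180.1 of Calr, 340.2 of Manf, 103 of Sdf2l1, 167 of Dnajb11, 279.9 of Dnajc3 and 138 of Creld2. It had 315 CPM of Pdia4 and 475 of Pdia6, and among degradation genes 120.3 of Syvn1, 284 of Edem1, 95.5 of Derl1 and 76.4 of Derl2. Sec61b stood at 136 CPM and Xbp1 at 329 CPM. The untreated libraries reached at most 898 CPM for Hspa5, 194 for Pdia4 and 262 for Xbp1. Its B and plasma cell markers summed to 27126 CPM, against 3143 to 19593 CPM in the untreated libraries, and its beta-cell markers to 61191 CPM, against 39504 to 186286 CPM. The part of those cells in these levels was not tested.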

How the results depend on the processing

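The number of the 35 genes called was recomputed under each alternative. The share of all genes called under each is not given. A count alone therefore does not tell whether these genes changed more than others. For DT 5 DPA against CTRL it was 3 to 4 with a library left out and 0 with neighbouring tissue left out at either acinar limit. For DT 30 DPA against CTRL it was 0 to 11 with a library left out, 11 by the DESeq2 Wald test, 7 with hormone genes out and 0 without the filter, with either marker score, with the replicate block and with neighbouring tissue left out. For DT 30 DPA against DT 5 DPA it was 5 to 7 with a library left out and 0 with the beta-cell score or with neighbouring tissue left out. For DT HFD against DT SD it was 0 to 15 with a library left out, 0 with either score and 0 with neighbouring tissue left out at the 10% limit. For STZ SD against DT SD it was 0 to 3 with a library left out, 6 by DESeq2, 1 without the filter, 1 with the replicate block and 0 with either score or at the 25% limit; the 10% limit leaves no STZ SD library and gave no value for comparisons of that group. For STZ HFD against DT HFD it was 0 to 1 with a library left out, for STZ HFD against CTRL HFD 1 by DESeq2, and at the 25% limit 3 for DT HFD against CTRL HFD and 1 for the interaction of DT and diet. Each left-out set has fewer libraries, whereas the marker scores leave none out but can follow the groups. Beta-cell sums did not overlap for DT 30 DPA against DT 5 DPA, DT HFD against DT SD and STZ SD against DT SD. B and plasma cell sums did not overlap for DT HFD against DT SD. There score and group can hardly be told apart, so a loss of calls with the score cannot be assigned to either. The causes of these changes were not tested.

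Replicate numbers were not used as pairs: correlations of same-numbered deviations ran between -0.18 and 0.65, and no comparison had all pairs over 0.1. For DT 5 DPA against CTRL they were 0.084, 0.40 and 0.65. Whether same-numbered libraries shared a preparation was not tested. With the block the other counts kept within 1.5 times: 4 for DT 5 DPA against CTRL, 5 for DT 30 DPA against DT 5 DPA and 12 for DT HFD against DT SD. Of 597 single-gene values, 445 kept their direction and side of the threshold, 136 fell short of it, 7 passed it and 9 changed sign, all of genes not called. The last were Xbp1 at 5 DPA (-0.10 at both limits) and, in DT HFD against DT SD, Xbp1 (0.032 with the block, 0.40 and 0.14 at the 10% and 25% limits, -0.20 to 0.17 with a library left out, 0.17 without DT HFD replicate 1 and 0.030 without DT SD replicate 1), Hspa5 (0.0053) and Ddit3 (0.022), both at the 10% limit. Scaling with DESeq2 size factors gave 4 calls for DT 30 DPA against CTRL and otherwise the same counts.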

Other observations

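STZ HFD replicate 4 was the highest of the 33 libraries for 6 of the 35 genes: Herpud1 (257 CPM), Sel1l, Edem1 (350.4 CPM), Derl3 (64.4 CPM), Xbp1 and Asns (194 CPM). In the same library Pdia3 was the lowest of the 33, at 469 CPM. Its acinar marker sum was the highest of the 33 libraries, and the part of acinar cells in these values was not tested. The share of all genes highest in this library was not counted.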
